A study of Mus musculus with 35 samples.

Results

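Medullary thymic epithelial cells (mTECs) of the mouse were sorted with an antibody against Gp2 and, in a separate sort, with an antibody against Cea1, and the change that went with the first antigen was set against the change that went with the second. The quantity compared was the log2 signal of Gp2-positive minus Gp2-negative cells, from which Cea1-positive minus Cea1-negative cells was subtracted, so a positive value means a larger change in the Gp2 sort. It used 11 of the 35 arrays of the study, which were 2 of Gp2-positive mTECs, 3 of Gp2-negative mTECs, 3 of Cea1-positive mTECs and 3 of Cea1-negative mTECs. Each array held total RNA of cells purified by flow cytometry and read on an Illumina mouse bead array. Strain, age, sex and sorting gates were not given in the sources used here. Nothing in the labels says whether the arrays of a group came from separate animals or pools, so p-values measure the spread between these arrays, which may be technical in part. Members were the probes with a gene symbol that were detected, at a detection p-value under 0.05, on at least 2 arrays of 1 of the 4 groups. These were 25071 of 46089 probes, and the brightest kept probe of each gene gave 16761 genes.

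mTECs transcribe genes of many peripheral tissues and show the products to developing T cells, and single mTECs carry partial programmes of other epithelia. Gp2 is a glycoprotein of pancreatic zymogen granules that also sits on microfold cells, the epithelial cells over intestinal lymphoid follicles that take up particles from the lumen, where it binds bacteria. Tuft cells are chemosensory epithelial cells that signal through taste-type G proteins and the channel Trpm5, and mTECs include cells with such a programme. Ceacam1, read here as the gene behind the name Cea1, encodes an adhesion molecule of many epithelia. The question was which programmes go with Gp2 transcript whichever antigen was sorted on, and which go with 1 of the sorts.

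Between 47.1% and 60.8% of probes were detected per array, lowest on a Gp2-positive and highest on a Gp2-negative array, and replicates correlated at 0.977 to 0.991 (Pearson, log2 signals over probes). The number of arrays limits the precision. Medullary markers were bright in all 4 groups. Aire, the regulator of tissue-restricted antigens, had 10.47 and 10.27 in Gp2-positive cells, 12.56, 12.67 and 12.67 in Gp2-negative cells, 12.03, 11.72 and 11.26 in Cea1-positive cells and 12.71, 12.50 and 12.68 in Cea1-negative cells (log2 signal, the scale of all levels below). The keratin gene Krt8 was detected on every array. The only probe of Epcam, the surface marker of epithelium, was near background throughout, at group means of 4.5, 4.8, 4.3 and 4.3, and was detected on 1 of 2 Gp2-positive, 3 of 3 Gp2-negative and no Cea1-sort arrays.

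Gp2 transcript was higher in both sorts, whereas Ceacam1 was called in 1 of them. Gp2 had 14.80 and 14.80 in Gp2-positive cells against 11.00, 10.63 and 10.83 in Gp2-negative cells. It had 14.19, 14.12 and 14.19 in Cea1-positive cells against 10.47, 10.59 and 10.41 in Cea1-negative cells. All positive arrays lay far above all negative ones, and the Cea1-positive arrays came within 1 unit of the Gp2-positive ones. The difference was 15.8-fold in the Gp2 sort and 12.8-fold in the Cea1 sort, and the difference between the sorts was 0.30 on the log2 scale (SE 0.17, 95% interval -0.04 to 0.64, limma, adjusted p = 0.174). With the authors' normalized values the difference was 0.45 and was called (adjusted p = 0.025). The probe ranked 2 from the brightest on both Gp2-positive arrays and 38 to 43 on the Cea1-positive ones, so the top of the signal scale bounds what this comparison can show. Ceacam1 had 5.30 and 5.82 in Gp2-positive cells against 5.37, 5.95 and 6.14 in Gp2-negative cells, ranges that overlapped. It had 9.31, 9.65 and 9.42 in Cea1-positive cells against 4.78, 5.02 and 4.24 in Cea1-negative cells. The difference of -0.26 in the Gp2 sort was not called (adjusted p = 0.482), that in the Cea1 sort was 27.5-fold, and the sorts differed by -5.04 (SE 0.36, adjusted p = 5.32e-13). Cells sorted on Cea1 thus carried much more Gp2 transcript, and cells sorted on Gp2 carried no detectable excess of Ceacam1 transcript. Ceacam2, a close relative, was 34.5-fold higher in the Cea1 sort and lower by a log2 difference of -0.57 in the Gp2 sort. Probes of such near-identical genes may share signal.

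**Figure D1:**
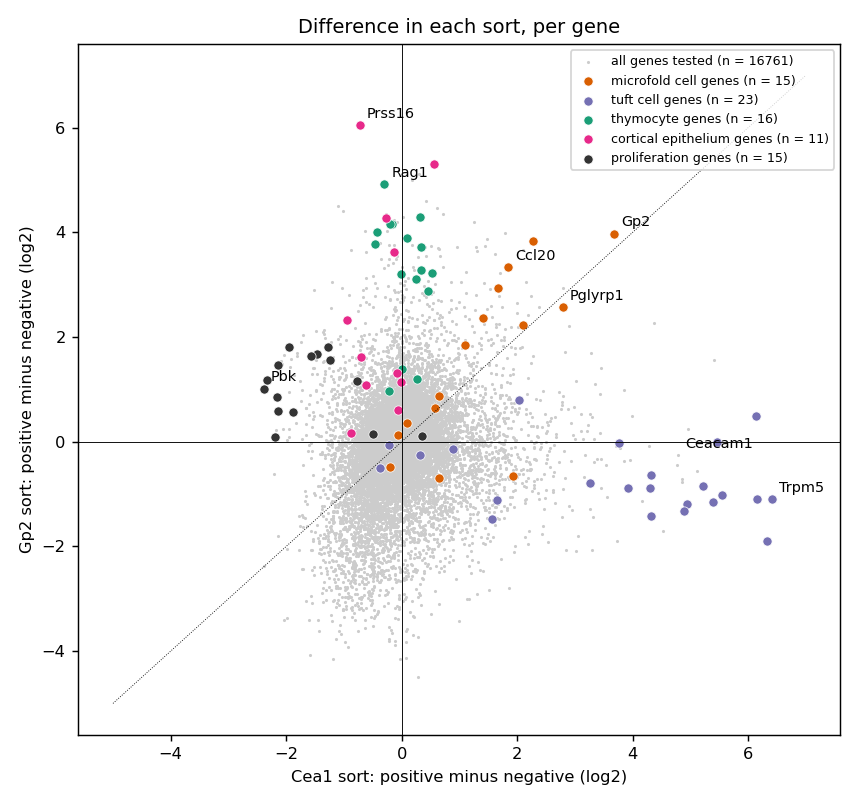
Each point is a gene, with positive minus negative cells of the Cea1 sort on the horizontal axis and of the Gp2 sort on the vertical axis (log2). Microfold cell genes lie toward the upper right with Gp2, and most tuft cell genes lie to the right of 0 (20 of 23 called higher in the Cea1 sort). Thymocyte and cortical epithelium genes lie high near a Cea1 difference of 0, and proliferation genes lie mostly at the upper left.

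A gene was called at an adjusted p under 0.05. In the Gp2 sort 3225 genes were higher (19.2% of those tested) and 3848 lower (23%) in positive cells. In the Cea1 sort 2452 were higher (14.6%) and 2882 lower (17.2%). Higher in both were 700 genes (4.18%). That is 21.7% of the Gp2 calls, against 14.6% of all genes higher in the Cea1 sort. It is 28.5% of the Cea1 calls, against 19.2% of all genes higher in the Gp2 sort. Another 1300 (7.76%) were lower in both. That is 33.8% of the Gp2 calls, against 17.2% of all genes lower in the Cea1 sort. It is 45.1% of the Cea1 calls, against 23% of all genes lower in the Gp2 sort. The difference of the sorts itself was called for 2548 genes in the positive (15.2%) and 3107 in the negative direction (18.5%). Counting only genes with that call, 1375 (8.2%) were higher in the Gp2 sort and not called in the Cea1 sort, and 719 (4.29%) the reverse. In the same way 1227 (7.32%) were lower in the Gp2 sort alone and 512 (3.05%) in the Cea1 sort alone. Calls of opposite sign came to 397 genes (2.37%) higher in the Gp2 sort and lower in the Cea1 sort. The reverse held for 540 (3.22%). The 397 are 13.8% of the genes lower in the Cea1 sort, against 19.2% of all genes higher in the Gp2 sort. The 540 are 14% of the genes lower in the Gp2 sort, against 14.6% of all genes higher in the Cea1 sort. They are 22% of the genes higher in the Cea1 sort, against 23% of all genes lower in the Gp2 sort. Opposite calls were thus not more frequent than these shares. For 2700 further genes only 1 sort made a call, but the sorts did not differ by the test, so these were assigned to neither. When arrays were scaled to a common median instead of being quantile-normalized, the median gene shifted by -0.306 in the Gp2 sort and -0.11 in the Cea1 sort. In the Gp2 sort 1317 genes were then called higher and 5704 lower, and in the Cea1 sort 1398 and 2441. The median-scaling counts of the gene lists below stand beside these. The calls for the difference then split into 969 positive and 3409 negative (22.1% positive against 45.1%), so the balance of directions rests on the scaling. With that scaling 174 genes were higher in both sorts, of which 157 were among the 700, 551 were higher in the Gp2 sort alone and 102 had opposite calls and were higher in the Gp2 sort.

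Most of the microfold cell list was higher in both sorts. Of its 16 genes 15 were tested, and Gp2, whose increase in both sorts was known when the comparison was chosen, is left out of the counts that follow. In the Gp2 sort 10 of the other 14 were higher and 3 lower with a median of 1.36, and in the Cea1 sort 11 were higher and none lower with a median of 1.26, against -0.03 and -0.05 over all genes tested. Of the 14 genes, 9 were higher in both, and 7 of the 14 did not differ between the sorts by the test. With median scaling 7 and 8 were called higher, and the median difference of the sorts of 0.21 turned to -0.21.

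Pglyrp1, a secreted peptidoglycan-binding protein, had 14.23 and 14.46 in Gp2-positive cells, 11.87, 11.72 and 11.74 in Gp2-negative cells, 13.66, 13.42 and 13.42 in Cea1-positive cells and 10.71, 10.67 and 10.76 in Cea1-negative cells. Positive and negative arrays did not overlap in either sort. Its differences of 5.93-fold and 6.9-fold did not differ by the test (-0.22, 95% interval -0.68 to 0.25, adjusted p = 0.498). The chemokine Ccl9 was alike in both, 4.69-fold higher in the Gp2 sort and 4.29-fold higher in the Cea1 sort. Spib, an ETS-family transcription factor that microfold cells require, was higher by 0.88 in the Gp2 sort (SE 0.17) and 0.64 in the Cea1 sort (SE 0.16), and Rac2, a small GTPase of blood cells, by 0.64 and 0.58.

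Of this list, 5 genes were higher in both but more so in the Gp2 sort. Ccl20, the chemokine that attracts Ccr6-bearing lymphocytes to follicle epithelium, had 11.06 and 12.00 in Gp2-positive cells, 8.33, 8.31 and 7.96 in Gp2-negative cells, 10.27, 9.69 and 10.33 in Cea1-positive cells and 8.23, 7.93 and 8.60 in Cea1-negative cells. The negative fractions of the sorts were level with each other, and the Gp2-positive arrays lay above the Cea1-positive ones. The change was 10.1-fold in the Gp2 sort and 3.59-fold in the Cea1 sort, with a difference of 1.49 (SE 0.40, adjusted p = 0.00335). Sox8, a transcription factor of microfold cell maturation, had 7.47 and 8.55 in Gp2-positive cells, 5.00, 4.79 and 5.44 in Gp2-negative cells, 6.92, 6.69 and 6.79 in Cea1-positive cells and 5.07, 5.35 and 5.00 in Cea1-negative cells. The Gp2-positive arrays were themselves far apart, and the call for its difference between sorts of 1.27 (SE 0.45, adjusted p = 0.0273) was lost under 6 of 22 alternatives. The others were Ccl6 (1.57), Tnfaip2, a protein of membrane protrusions (0.94), and Serpinb1a, an inhibitor of neutrophil proteases (0.75). None of these 5 was called for the difference with median scaling, and 2 were without Gp2-positive replicate 2.

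A pair of genes on the list went opposite ways. Pigr, the receptor that carries polymeric immunoglobulin across epithelium, had 7.36 and 7.61 in Gp2-positive cells against 8.30, 8.11 and 8.04 in Gp2-negative cells, and 9.20, 9.17 and 9.56 in Cea1-positive cells against 7.13, 7.56 and 7.48 in Cea1-negative cells. It was lower in the Gp2 sort and higher in the Cea1 sort, with a difference of -2.58 (SE 0.32, adjusted p = 5.67e-08). Scg5, a chaperone of neuroendocrine secretory granules, behaved alike with a difference of -1.32. The decreases in the Gp2 sort were small. Without Gp2-positive replicate 1 none of the 3 lower genes of the list was called lower, and without Gp2-negative replicate 1 only 1 was, whereas the negative difference of the sorts was called in both cases for 2 genes of the list. Clu was not tested because none of its probes passed the detection rule.

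**Figure D2:**
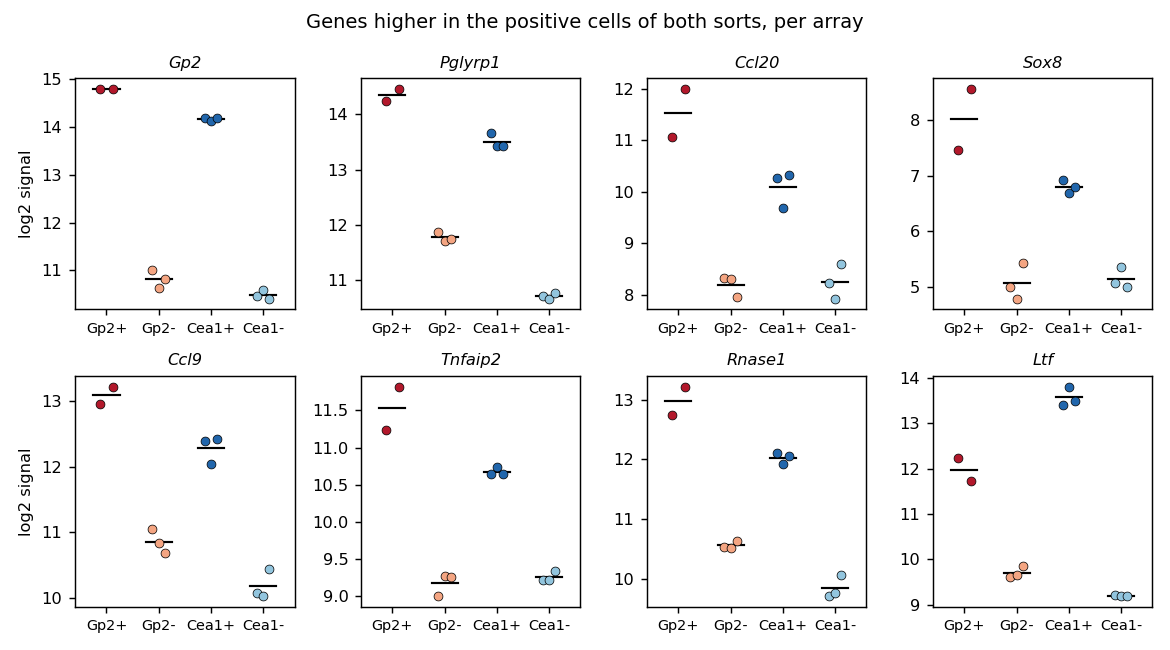
Log2 signal of 8 genes that were higher in the positive cells of both sorts, with each array as a point and the group mean as a line. Positive arrays lie above negative arrays of the same sort in every panel; Ccl20, Sox8 and Tnfaip2 are highest in Gp2-positive cells and Ltf in Cea1-positive cells.

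The genes with the largest difference in both sorts included some outside the list. Serpina10, an inhibitor of coagulation proteases, had 9.80 and 10.40 in Gp2-positive cells against 7.09, 7.40 and 7.01 in Gp2-negative cells, and 9.52, 9.16 and 9.83 in Cea1-positive cells against 6.81, 6.50 and 6.84 in Cea1-negative cells. This was 7.62-fold and 6.91-fold, with the arrays apart in both sorts. Rnase1, a secreted ribonuclease of the pancreas, was 5.36-fold and 4.54-fold higher, and Lrrc26, an accessory subunit of potassium channels in secretory epithelium, 5.97-fold and 5.23-fold. Ltf, the iron-binding protein lactoferrin, had 12.23 and 11.72 in Gp2-positive cells, 9.61, 9.65 and 9.86 in Gp2-negative cells, 13.41, 13.80 and 13.49 in Cea1-positive cells and 9.22, 9.20 and 9.19 in Cea1-negative cells. It was higher in both, but by 20.6-fold in the Cea1 sort against 4.83-fold in the Gp2 sort (difference -2.10, SE 0.24, adjusted p = 1.02e-08). The lymphocyte GTPase Gimap1 was higher by 2.78 and 2.24, and the T cell adaptor Fyb by 2.20 and 2.89. In Gp2-positive cells these stood beside thymocyte transcripts, described below, whose part in them was not tested, and in Cea1-positive cells no gene of the thymocyte list was called. Of the 700 shared genes, 115 changed more in the Gp2 sort, 66 more in the Cea1 sort and 519 did not differ by the test.

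The shared genes were also high where other antigens had been sorted. The means of those arrays did not choose these genes, but their spread entered the estimate behind every call. A gene with a small spread is called more readily in every sort, so the shares below are not independent of the choice. Called higher were 79.3% of the 700 in Tspan8-positive cells (20.4% of all genes), 68.6% in Ins2-reporter-positive cells (17.8%), 49.9% in Pdpn-positive cells (19.5%) and 42% in Gad1-reporter-positive cells (20.6%). At least 3 of these 4 sorts called 374 of them (53.4%) against 9.68% of all genes, and 94 (13.4%) were called in all 4, against 1.75%. With median scaling at least 3 called 65 of the 174 (37.4%) against 4.28% of all genes, and with a difference of at least 1 required 44 of 139 (31.7%) against 3.13%. Gp2 itself was higher in all 4. Pglyrp1 was higher by 2.36 with Tspan8, 1.84 with Ins2, 1.55 with Gad1 and 0.22 with Pdpn, and Ltf by 4.21, 3.72, 2.45 and 2.93. Of the 15 tested microfold cell genes, Gp2 included, 11 were higher and 1 lower with Gad1, and 11 were higher and 1 lower with Ins2. With Tspan8 9 were higher and 2 lower, whereas with Pdpn 2 were higher and 6 lower. Spib, a member of that list, was lower or not called in these sorts, with differences of -0.54 with Pdpn, -0.50 with Gad1, -0.29 with Ins2 and -0.12 with Tspan8.

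Genes lower in both sorts included most of the mTEC maturation and antigen presentation lists. In the maturation list 12 of 13 genes were lower in the Gp2 sort and 8 in the Cea1 sort, and the same 8 were lower in both. Fezf2, a second regulator of tissue-restricted antigens, had 11.32 and 11.62 in Gp2-positive cells against 13.22, 13.58 and 13.40 in Gp2-negative cells, and 12.90, 12.99 and 12.88 in Cea1-positive cells against 13.28, 13.23 and 13.47 in Cea1-negative cells. It was lower in both, with a log2 difference of -1.93 in the Gp2 sort and -0.41 in the Cea1 sort. The difference of the sorts was negative for 11 of the 13, so most of the list was lower by more in the Gp2 sort. For Aire it was -1.30 (SE 0.22), for the costimulator Cd80 -1.73 (SE 0.27) and for the chemokine Ccl19 -2.97 (SE 0.28). Ccl17, a chemokine for dendritic cells and T cells, fell in the Gp2 sort alone, with 5.03 and 4.58 in Gp2-positive cells, 10.24, 8.68 and 7.90 in Gp2-negative cells, 8.24, 7.85 and 8.20 in Cea1-positive cells and 7.91, 7.81 and 8.35 in Cea1-negative cells. Of 11 genes of MHC class II presentation, 10 fell in the Gp2 sort and 7 in the Cea1 sort, among them H2-Ob, a modulator of peptide loading (-2.67 and -0.59), and H2-Eb1 (-1.23 and -0.28). On the same Gp2-positive arrays all 16 thymocyte genes and 10 of 11 cortical epithelium genes were higher, as described below, and their part in these decreases was not tested.

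The genes with the largest decreases in both sorts were of several kinds. Phgdh, the first enzyme of serine synthesis, had 7.27 and 6.80 in Gp2-positive cells against 9.41, 9.25 and 9.57 in Gp2-negative cells, and 7.97, 7.58 and 7.04 in Cea1-positive cells against 9.80, 9.99 and 9.96 in Cea1-negative cells. The decrease was 5.18-fold and 5.25-fold, with a difference of 0.02 (95% interval -0.60 to 0.64). Psat1, the next enzyme of the same pathway, went opposite ways, with 10.81 and 10.38 in Gp2-positive cells, 9.10, 8.46 and 8.40 in Gp2-negative cells, 7.86, 7.74 and 7.50 in Cea1-positive cells and 8.94, 8.27 and 8.77 in Cea1-negative cells. The ligand Wnt10b (-2.42 and -1.72), the growth factor Mdk (-2.43 and -1.71), the Wnt co-receptor partner Kremen2 (-1.80 and -2.14) and the glutamate transporter Slc1a3 (-2.07 and -1.78) were lower in both, as were Pitpnc1 and Tmem158. The hormone gene Pth was lower in both but variable, with 5.00 and 7.13 in Gp2-positive cells and 7.16, 5.92 and 6.41 in Cea1-positive cells. Of the 1300 genes lower in both, 460 fell more in the Gp2 sort, 15 more in the Cea1 sort and 825 did not differ by the test.

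Tuft cell genes went with Cea1 and not with Gp2. Of the 24 on the list 23 were tested, and in the Cea1 sort 20 were higher and none lower with a median difference of 4.32. In the Gp2 sort 1 was higher and 14 were lower, with a median of -0.89 (-0.85 with undetected genes at their bound). The difference of the sorts was negative for 20 of 23, with a median of -5.19 (-5.02 with undetected genes at their bound). Of the 10 largest negative differences of all genes with a settled name, every one belonged to this list except that of Ceacam2.

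Gnat3, the G protein alpha subunit of taste cells, had 7.63 and 7.74 in Gp2-positive cells against 9.81, 9.51 and 9.40 in Gp2-negative cells. It had 10.93, 10.99 and 11.65 in Cea1-positive cells against 4.85, 5.13 and 4.59 in Cea1-negative cells. It was 3.7-fold lower in the Gp2 sort and 80.5-fold higher in the Cea1 sort, and the sorts differed by -8.22 (SE 0.42, adjusted p = 1.6e-16). Trpm5, the cation channel downstream, had 7.47 and 7.17 in Gp2-positive cells, 8.29, 8.59 and 8.37 in Gp2-negative cells, 10.08, 10.27 and 11.36 in Cea1-positive cells, and was not detected on the Cea1-negative arrays (4.21, 4.13 and 4.13). The Cea1-positive level was at least 72.9-fold higher, counted against the lowest signal detected on each Cea1-negative array. Avil, an actin-bundling protein of tuft cells, had 9.44 and 9.54 in Gp2-positive cells, 10.44, 10.51 and 10.57 in Gp2-negative cells, 12.08, 12.25 and 12.93 in Cea1-positive cells and 6.58, 7.18 and 6.85 in Cea1-negative cells. In all 3 genes the levels ran in the order Cea1-positive, Gp2-negative, Gp2-positive, Cea1-negative, with no overlap between neighbours.

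The negative fractions of the sorts were themselves apart. For the tuft list, Gp2-negative minus Cea1-negative cells had a median of 1.92 (1.84 with undetected genes at their bound), with 16 of 23 genes higher (8.99% of all genes tested) and 1 lower (9.81%). That comparison lies between sorts, so the fraction and the sort it came from cannot be told apart. Trpm5, undetected in Cea1-negative cells, was at least 16.3-fold higher in Gp2-negative cells. Gnat3 was higher in Gp2-negative than Cea1-negative cells by 4.72 and Lrmp, a membrane protein of tuft cells, by 4.11. Lrmp had 11.94 and 11.46 in Gp2-positive cells, 11.50, 11.22 and 10.87 in Gp2-negative cells, 13.10, 13.02 and 13.56 in Cea1-positive cells and 7.37, 7.02 and 6.87 in Cea1-negative cells. Lrmp, Plcb2, the phospholipase of the taste cascade, and Il17rb, a receptor chain for Il25, were not called in the Gp2 sort (0.50, 0.00 and -0.02). The lipid mediator genes Alox5 and Alox5ap, which start leukotriene synthesis, differed between sorts by -6.23 and -7.25, Chat, which makes acetylcholine, by -5.74. The cytokine gene Il25 was undetected in Cea1-negative cells, and its difference between sorts was -5.02 with that group at its bound. Gfi1b, a repressor, was the 1 tuft gene higher in both sorts (0.80 and 2.03), and that call in the Gp2 sort was lost with median scaling and without Gp2-positive replicate 2 or Gp2-negative replicate 2. Pou2f3, the master regulator of tuft cells, stayed near background on all arrays, between 4.13 and 5.17, with no call in either sort and a difference of -0.58 (95% interval -1.19 to 0.04). Ptgs1 was not tested. In bulk RNA more cells of a type and more RNA per cell cannot be told apart.

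Most of the 23 tuft genes were higher in 3 of the other sorts and lower in the fourth. With Tspan8 21 were higher and 1 lower (median 2.34), with Gad1 20 were higher and none lower (median 1.87), with Ins2 16 were higher and 1 lower (median 1.21), and with Pdpn none was higher and 18 were lower (median -1.18). The shares of all genes called higher in these sorts are given with the shared genes above. Called lower were 25.7% of all genes with Tspan8, 20.7% with Gad1, 19.1% with Ins2 and 20.7% with Pdpn. Trpm5 differed by 2.91 with Tspan8, 2.43 with Gad1 and 1.81 with Ins2, and by -1.32 with Pdpn. Avil differed by 3.15, 2.80, 1.71 and -1.26 in that order. For both genes the Gp2 and Pdpn sorts had a negative difference.

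**Figure D3:**
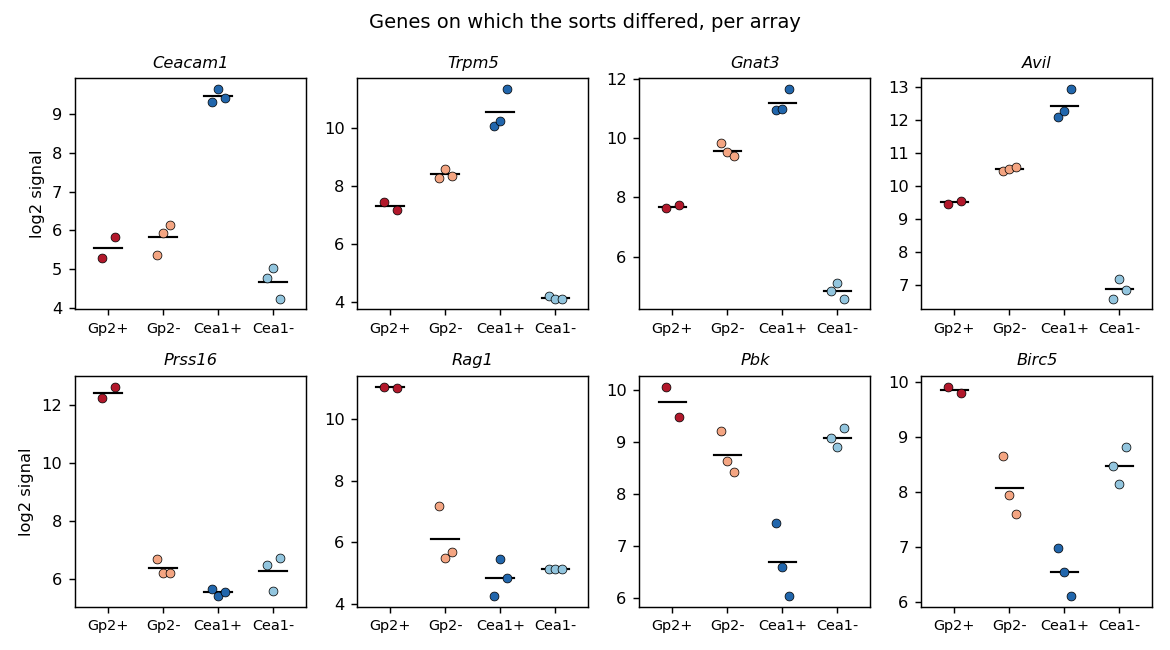
Log2 signal of 8 genes on which the sorts differed, with each array as a point and the group mean as a line. Trpm5, Gnat3 and Avil are highest in Cea1-positive and lowest in Cea1-negative cells, Prss16 and Rag1 stand out in Gp2-positive cells, and Pbk and Birc5 are highest in Gp2-positive and lowest in Cea1-positive cells.

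Several peripheral tissue lists were higher in Cea1-positive cells and lower in Gp2-positive cells. The rise was not particular to Cea1. With Gad1, Ins2, Tspan8 and Pdpn, 17, 17, 18 and 1 of the 19 cornified genes were higher. Of the goblet genes 6, 4, 6 and 1 of 7 were higher in that order, and of the airway genes 7, 8, 7 and 6 of 11. The part of the thymocyte and cortical transcripts on the Gp2-positive arrays, described below, in the decreases was not tested. Of 19 cornified keratinocyte genes, 15 were higher in the Cea1 sort and 11 lower in the Gp2 sort, with medians of 1.44 and -0.71. With median scaling the Gp2 median was -1.30 with 14 lower. That scaling called 5704 of all 16761 genes lower in the Gp2 sort, against 3848 in the fit as reported. Without Gp2-positive replicate 1 the Gp2 median was -0.43. Krt10, a keratin of the upper epidermis, had 10.97 and 11.04 in Gp2-positive cells, 12.16, 12.50 and 12.30 in Gp2-negative cells, 12.82, 13.19 and 12.83 in Cea1-positive cells and 11.25, 11.61 and 11.65 in Cea1-negative cells, a difference of -2.75 between sorts (SE 0.23). Of 7 goblet and mucous genes, 6 were higher in the Cea1 sort and 6 lower in the Gp2 sort, among them Zg16, a lectin of mucous granules (-2.92 in the Gp2 sort and 1.30 in the Cea1 sort), and Clca1, a mucus-processing protease (-0.67 and 3.15). Without Gp2-positive replicate 1, 3 goblet genes were called lower in the Gp2 sort. Of 11 lung and airway secretory genes, 7 were higher in the Cea1 sort and 6 lower in the Gp2 sort, of which 3 were called without Gp2-positive replicate 1, Gp2-positive replicate 2 or Gp2-negative replicate 3. Scgb1a1, the club cell secretoglobin, had 8.88 and 8.89 in Gp2-positive cells, 10.79, 11.03 and 10.67 in Gp2-negative cells, 11.91, 12.00 and 11.99 in Cea1-positive cells and 9.67, 9.76 and 9.89 in Cea1-negative cells. Cyp2f2, a cytochrome of club cells, was 10.1-fold higher in the Cea1 sort and not called in the Gp2 sort (0.05, 95% interval of the difference between sorts -3.97 to -2.61).

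For salivary kallikreins and hormones the decrease in the Gp2 sort was the larger side. All 12 tested kallikrein genes were lower in the Gp2 sort (median -3.05), 7 were higher in the Cea1 sort (4 with median scaling, median 0.62) and all 12 differed between sorts. These genes are near-identical copies, so their probes may share signal. Klk1b5 had 7.04 and 8.03 in Gp2-positive cells, 10.33, 10.34 and 10.44 in Gp2-negative cells, 11.10, 10.89 and 11.01 in Cea1-positive cells and 9.29, 9.55 and 9.63 in Cea1-negative cells. Among 15 endocrine genes 12 were lower in the Gp2 sort (median -2.0, and -1.93 with undetected genes at their bound), while in the Cea1 sort 3 were higher and 2 lower (median 0.08, turning to -0.06 with median scaling). Sst, the somatostatin gene, had 4.17 and 6.18 in Gp2-positive cells, 9.69, 9.51 and 9.78 in Gp2-negative cells, 9.99, 9.98 and 9.46 in Cea1-positive cells and 9.34, 9.77 and 9.49 in Cea1-negative cells. Gcg, the glucagon gene, was 12.2-fold lower in the Gp2 sort and not called in the Cea1 sort. Chgb, a granin of secretory granules, was undetected in Gp2-positive cells, at least 3.65-fold lower there than in Gp2-negative cells, and 3.91-fold higher in the Cea1 sort. In the enterocyte list 9 of 14 genes were higher in the Gp2 sort and 5 in the Cea1 sort, all 5 in both, and its Gp2 median of 0.57 turned to -0.02 with median scaling, where 2 were higher. Without Gp2-positive replicate 2 the count was 4.

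Gp2 is a zymogen granule protein of the pancreas, and the other genes of the exocrine pancreas divided. Of 15 listed, 13 were tested. In the Gp2 sort 3 were higher and 8 lower (median -1.40, and -0.92 without Gp2-positive replicate 1), and in the Cea1 sort 7 were higher and 1 lower (median 0.48). The difference of the sorts was negative for 9 and positive for none. Higher in both were Rnase1 and the trypsinogen gene Prss2, which had 6.19 and 7.04 in Gp2-positive cells, 4.91, 5.06 and 4.53 in Gp2-negative cells, 7.40, 7.28 and 7.65 in Cea1-positive cells and 4.96, 5.47 and 5.72 in Cea1-negative cells. Opposite calls, lower in the Gp2 sort and higher in the Cea1 sort, were made for 4 genes. They included Reg1, a secreted lectin-like protein, and Cela2a, an elastase, which had 5.28 and 5.40 in Gp2-positive cells, 6.78, 7.40 and 7.12 in Gp2-negative cells, 8.86, 9.15 and 9.30 in Cea1-positive cells and 7.65, 7.68 and 7.48 in Cea1-negative cells. Its difference between sorts was -3.26 (adjusted p = 1.04e-09). Spink1, the trypsin inhibitor, was higher by 2.29 in the Cea1 sort and was not called in the Gp2 sort (-0.02, adjusted p = 0.94).

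**Figure D4:**
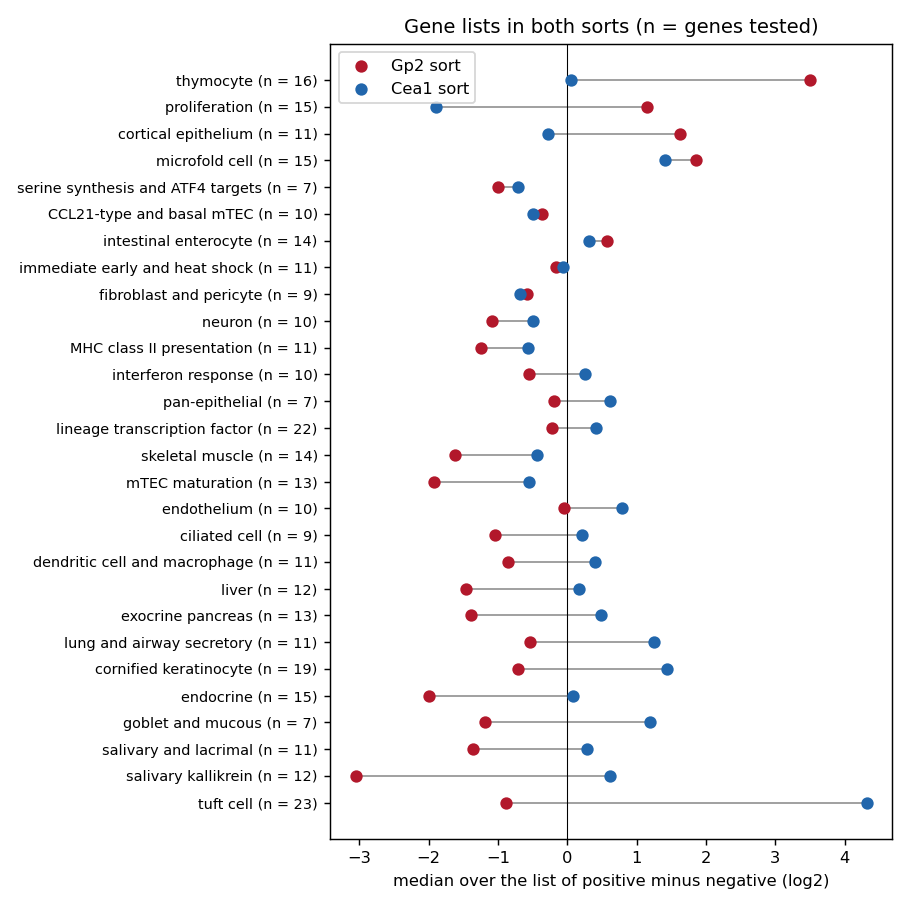
Median over each gene list with at least 7 tested genes of positive minus negative cells (log2), with the Gp2 sort in red and the Cea1 sort in blue. The medians lie far apart for thymocyte, proliferation, tuft cell and kallikrein genes and close together for microfold cell genes, Gp2 included; with median scaling the Gp2 points of the enterocyte and endothelium lists and the Cea1 point of the endocrine list change sign.

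Cortical epithelium genes went with the Gp2 sort. Of 12 listed genes 11 were tested, and 10 were higher in the Gp2 sort (8 with median scaling) with a median of 1.63. In the Cea1 sort 1 was higher and 5 were lower, with a median of -0.28. The lower calls fell to 3 with the authors' normalized values, with the mean over probes, and without Cea1-negative replicate 3 or Cea1-positive replicate 3. The 1 higher call was lost with median scaling, with the mean over probes, where its sign turned, and without Cea1-negative replicate 1 or 3 or Cea1-positive replicate 2 or 3. All 11 differed between the sorts (9 with median scaling). With Pdpn 6 of the 11 were called higher and 4 lower (median 0.62). With Gad1 2 were higher and 2 lower, with Ins2 1 and 6, and with Tspan8 none was higher and 4 were lower. Prss16, the thymus-specific serine protease of cortical epithelium, had 12.22 and 12.63 in Gp2-positive cells, 6.68, 6.21 and 6.21 in Gp2-negative cells, 5.64, 5.39 and 5.55 in Cea1-positive cells and 6.46, 5.58 and 6.73 in Cea1-negative cells. It stood out in Gp2-positive cells alone, 66.6-fold above Gp2-negative cells, and its difference between sorts of 6.78 (SE 0.39, adjusted p = 2.78e-15) was the largest positive one among named genes. Psmb11, the proteasome subunit of cortical epithelium, had 8.84 and 8.19 in Gp2-positive cells, 5.06, 4.84 and 4.79 in Gp2-negative cells, 4.13, 4.10 and 4.21 in Cea1-positive cells and 4.52, 4.16 and 4.18 in Cea1-negative cells. Cxcl12, a chemokine for early thymocytes, was 39.4-fold higher in the Gp2 sort, and the 1.48-fold in the Cea1 sort was that call. The protease gene Ctsl and the endocytic receptor gene Ly75 differed between sorts by 4.56 and 3.28. Foxn1, the regulator of all thymic epithelium, was not called in the Gp2 sort (0.17) and was lower in the Cea1 sort (-0.88).

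Thymocyte transcripts were higher on the same Gp2-positive arrays, and which cells of that fraction held them was not tested. All 16 tested genes of the list were higher in the Gp2 sort with a median of 3.50, none was called in the Cea1 sort (median 0.05), and all 16 differed between sorts. Cd3e, a chain of the T cell receptor complex, had 12.05 and 11.70 in Gp2-positive cells, 9.43, 7.05 and 6.29 in Gp2-negative cells, 6.75, 6.85 and 5.58 in Cea1-positive cells and 5.99, 6.24 and 5.99 in Cea1-negative cells. Rag1, a recombinase of developing lymphocytes, had 11.05 and 11.02 in Gp2-positive cells, 7.19, 5.48 and 5.68 in Gp2-negative cells, 4.25, 5.45 and 4.83 in Cea1-positive cells and 5.15, 5.15 and 5.13 in Cea1-negative cells. Gp2-positive arrays were highest for both genes, and replicate 1 of Gp2-negative cells stood above its companions. The summed signal of the list was 14.96 to 15.44 in Gp2-positive cells, 11.09 to 12.88 in Gp2-negative cells, 10.84 to 11.18 in Cea1-positive cells and 10.77 to 10.89 in Cea1-negative cells (log2 of the sum). No gene of the list was undetected on all Gp2-positive arrays, while 1 was on the Gp2-negative and 2 each on the Cea1-positive and Cea1-negative arrays. The part of thymocyte RNA in the other increases of the Gp2 sort was not tested. The pan-leukocyte genes Coro1a (2.53) and Ptprc (1.49) were higher in the Gp2 sort and not called in the Cea1 sort, and Cd52 was lower (-1.53). Without Gp2-negative replicate 1 all 16 thymocyte genes were still higher in the Gp2 sort, with a median of 4.13, and 1 was called in the Cea1 sort. Without Cea1-positive replicate 3, 2 were called higher in the Cea1 sort.

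Some of the largest positive differences between sorts belonged to no list. Synm, an intermediate filament protein, had 11.97 and 11.60 in Gp2-positive cells, 7.48, 7.36 and 7.02 in Gp2-negative cells, 6.46, 6.97 and 6.15 in Cea1-positive cells and 7.63, 7.81 and 7.46 in Cea1-negative cells. It was 22.6-fold higher in the Gp2 sort and 2.15-fold lower in the Cea1 sort. The scavenger receptor gene Scarf2 (4.81), the methyltransferase gene Inmt (4.65), the small GTPase gene Diras2 (4.63) and Fam78a (4.82) also differed between the sorts. All 4 were higher in the Gp2 sort, and in the Cea1 sort Inmt was lower (-0.63) and the others were not called. Scarf2, Diras2 and Synm were also higher in the Pdpn sort, by 4.22, 2.75 and 2.83.

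Proliferation genes went opposite ways. In the Gp2 sort 12 of 15 tested were higher (median 1.15), in the Cea1 sort 14 of 15 were lower (median -1.89), and 12 had both calls. Birc5, a mitotic survivin, had 9.92 and 9.81 in Gp2-positive cells, 8.66, 7.95 and 7.59 in Gp2-negative cells, 6.98, 6.54 and 6.10 in Cea1-positive cells and 8.47, 8.15 and 8.82 in Cea1-negative cells. Pbk, a mitotic kinase, had 10.07 and 9.48 in Gp2-positive cells, 9.21, 8.64 and 8.43 in Gp2-negative cells, 7.44, 6.59 and 6.03 in Cea1-positive cells and 9.07, 8.90 and 9.27 in Cea1-negative cells. The negative fractions were alike, Gp2-positive cells lay above them and Cea1-positive cells below. The differences between sorts were 3.75 for Birc5 (SE 0.35) and 3.41 for Pbk (SE 0.33). With median scaling the calls in the Gp2 sort dropped to 5 of 15, and those in the Cea1 sort were 13 of 15. The summed signal of the list was 13.11 to 13.57 in Gp2-positive cells, 11.72 to 12.60 in Gp2-negative cells, 10.31 to 10.77 in Cea1-positive cells and 12.11 to 12.56 in Cea1-negative cells. The thymocyte transcripts described above moved with this list in the Gp2 sort, and their part in it was not tested. In the Cea1 sort no thymocyte gene was called.

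The 1-sort classes differed in where else they were found. Of the 719 genes higher in the Cea1 sort and not in the Gp2 sort, 386 (53.7%) were called higher in at least 3 of the Pdpn, Gad1, Ins2 and Tspan8 sorts, and of the 540 with opposite calls that were higher in the Cea1 sort, 307 (56.9%). Of the 1375 genes higher in the Gp2 sort and not in the Cea1 sort the count was 56 (4.07%), and of the 397 with opposite calls higher in the Gp2 sort it was 0 (0%), against 9.68% of all genes. With median scaling the shares were 36.4% of 448, 43.1% of 531, 0.726% of 551 and 0% of 102, against 4.28% of all genes. In the Pdpn sort 45.2% of the 1375 and 48.9% of the 397 were called higher, against 19.5% of all genes. The share there was 49.9% of the 700 genes higher in both sorts, 26.4% of the 719 and 13% of the 540. In the Gad1, Ins2 and Tspan8 sorts 81.1%, 72.5% and 77.3% of the 397 were called lower (20.7%, 19.1% and 25.7% of all genes). Genes lower in both sorts were called lower in 88.8% of cases with Tspan8, 65% with Pdpn, 61.6% with Ins2 and 36.3% with Gad1. Of all genes 25.7%, 20.7%, 19.1% and 20.7% were lower in that order. With Gad1 23% of the genes lower in both were called higher, against 20.6% of all genes.

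**Figure D5:**
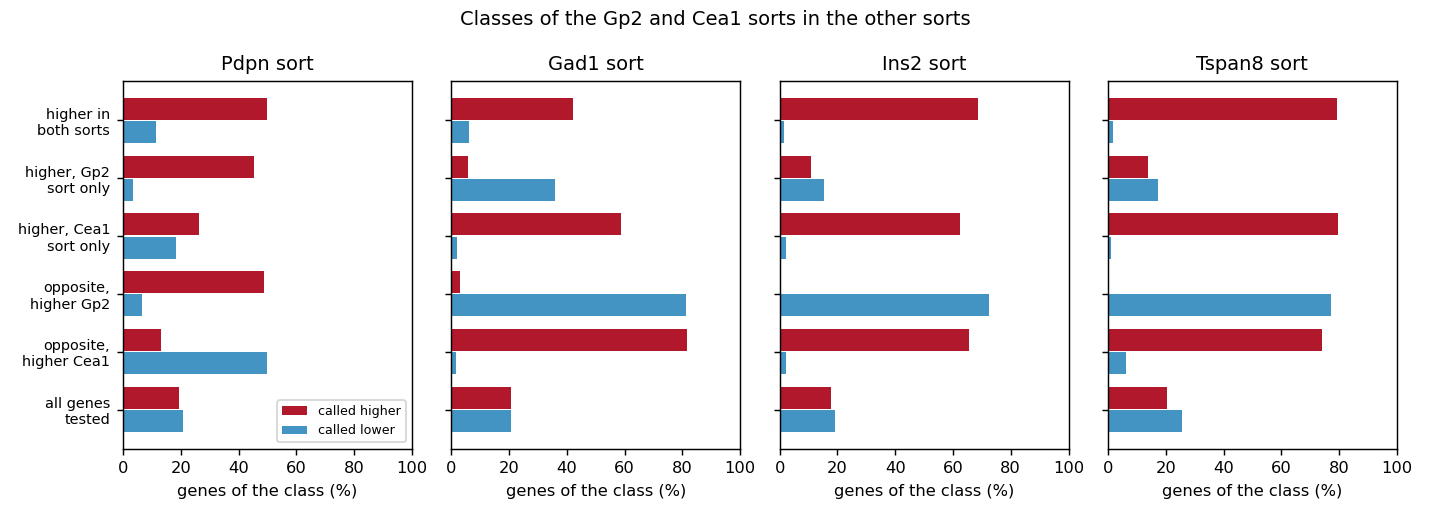
Percent of the genes of each class that were called higher (red) or lower (blue) in the Pdpn, Gad1, Ins2 and Tspan8 sorts, with all genes tested in the bottom row. Genes higher in both sorts are called higher above the share of all genes in every panel, and genes with opposite calls that are higher in the Gp2 sort are called higher with Pdpn and lower with the other antigens.

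The 250 bases before the start of the transcript were read from RefSeq (GRCm38.p6) for 12123 of the tested genes, and searched on both strands for ATGCAAAT, the octamer bound by POU factors such as Pou2f3, and for GAGGAAGT, an ETS-type site of the kind bound by Spib. The octamer was present in 1.82% of tested genes' promoters and 1.81% of all 27025 promoters. It was present in 18 of 393 promoters (4.58%) of genes with opposite calls that were higher in the Cea1 sort, 18 of 514 (3.5%) of those higher in the Cea1 sort and not in the Gp2 sort, 13 of 503 (2.58%) of those higher in both, and 14 of 1002 (1.4%) of those higher in the Gp2 sort and not in the Cea1 sort. The ETS-type site was present in 2.78% of tested genes' promoters and in 2.78% of those higher in both. It was present in 22 of 514 (4.28%) of those higher in the Cea1 sort and not in the Gp2 sort. The counts were 34 of 1002 (3.39%) for the reverse and 12 of 393 (3.05%) for opposite calls higher in the Cea1 sort. Of 12 microfold gene promoters none held either motif, and of 18 tuft gene promoters 2 held the octamer, those of Hpgds, a prostaglandin D synthase, and Sucnr1, the receptor for succinate. Hpgds also held the ETS-type site. The promoters of Gp2 and Pglyrp1, which moved together in both sorts, are shown with these, and capitals mark motif matches.
Gp2, chr7:119459273-119459522, minus strand: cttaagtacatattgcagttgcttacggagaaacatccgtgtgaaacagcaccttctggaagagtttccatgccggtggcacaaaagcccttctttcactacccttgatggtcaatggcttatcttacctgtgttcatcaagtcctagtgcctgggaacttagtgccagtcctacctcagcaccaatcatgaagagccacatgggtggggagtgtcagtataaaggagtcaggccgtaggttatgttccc
Pglyrp1, chr7:18884440-18884689, plus strand: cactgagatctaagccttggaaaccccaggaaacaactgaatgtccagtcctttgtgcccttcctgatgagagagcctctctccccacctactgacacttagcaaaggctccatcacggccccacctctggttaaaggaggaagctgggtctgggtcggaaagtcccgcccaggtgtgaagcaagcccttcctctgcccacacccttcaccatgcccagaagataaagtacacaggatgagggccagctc
Hpgds, chr6:65144731-65144980, minus strand: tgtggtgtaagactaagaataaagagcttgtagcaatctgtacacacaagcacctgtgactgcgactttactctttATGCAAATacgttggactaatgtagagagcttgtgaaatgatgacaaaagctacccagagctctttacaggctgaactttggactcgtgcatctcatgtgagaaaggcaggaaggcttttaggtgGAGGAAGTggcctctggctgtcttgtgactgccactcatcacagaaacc
Sucnr1, chr3:60081619-60081868, plus strand: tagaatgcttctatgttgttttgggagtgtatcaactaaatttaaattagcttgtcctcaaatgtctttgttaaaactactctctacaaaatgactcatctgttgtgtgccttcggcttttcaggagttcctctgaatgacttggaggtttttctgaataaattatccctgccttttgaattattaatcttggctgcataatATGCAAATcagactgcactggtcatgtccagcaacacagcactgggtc
Hpgds had 5.97 and 6.11 in Gp2-positive cells, 7.48, 7.33 and 7.73 in Gp2-negative cells, 8.57, 8.60 and 9.00 in Cea1-positive cells and 6.98, 7.47 and 7.04 in Cea1-negative cells. It was lower in the Gp2 sort and higher in the Cea1 sort, a difference of -3.03 (SE 0.27). Sucnr1 was undetected in Gp2-positive cells, at least 1.8-fold lower there than in Gp2-negative cells, and 3.13-fold higher in the Cea1 sort. A match is a string of letters in this window and no evidence of binding.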

How the data were processed

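The authors deposited, per the file headers, a table of unnormalized mean bead intensity with a detection p-value for each probe and array, and a series table of intensity that they normalized by a method not given in the sources used here. The tables name probes differently, and all 46089 were linked by their values over 34 arrays (median distance ratio 0.0321). The intensity column of Ins2-negative replicate 2 held p-values and was left out. Symbols came from the platform annotation, updated with RefSeq (GRCm38.p6) names. Of the probes, 35667 had 1 symbol and 10422 had none.

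The function neqc of limma 3.58.1 (R 4.3.3, offset 16) corrected background, made the quantiles of all arrays equal and returned log2 signals. The linear model held the means of 12 groups (lmFit, then eBayes with trend, 22 residual degrees of freedom), and p-values were adjusted by Benjamini and Hochberg over 16761 genes with a threshold of 0.05. Where a gene was undetected on all arrays of a group, its level there was set to the lowest signal well detected on each array for an "at least" fold. A test on simulated data for the difference of the sorts covered 16761 genes, of which 200 were changed. It recovered 97 of 100 genes changed by 2 on the log2 scale and 42 of 100 changed by 1. Of 145 calls 6 were false. Noise was drawn for each gene independently. In the data 2548 genes were called positive and 3107 negative, so these rates need not hold there. Alternatives were no background correction, median scaling, both sorts normalized alone, the 4 groups fitted alone, the authors' normalized values, other detection filters, array weights, the mean over a gene's probes, a minimum difference, a replicate block and each array left out. No set test was made.

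The genes compared and the gene lists were chosen with earlier results of these data known. Named genes are the sorted antigens, Aire, Fezf2 and Cd80; the largest differences between sorts and the largest changes shared by or opposite in them; all members of the microfold, tuft, cortical and thymocyte lists; and up to 4 members of each other list with the smallest adjusted p. Of 78 named genes called for the difference that had further probes, 72 had the same sign in all. The exceptions were Asns, Gad1, Shmt2, Actc1, Thy1 and Cdh1.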

Additional observations from a re-analysis of the deposited data

Results flagged for a closer look

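The opposite calls with the largest smaller change were looked at again. Positive cells of the sorts moved in opposite directions there, and the difference of the sorts was itself called by limma. As a class, opposite calls were not more frequent than the shares of all genes given above. Genes that were higher in the Gp2 sort and lower in the Cea1 sort were Cdca3, a mitotic regulator (difference of the sorts 3.80), the histone genes H2ac22 (3.75) and H2ac11 (3.71), Birc5 (3.75), the cohesion factor Cdca5 (3.71) and Fignl1, a recombination factor (3.66). Cdca3 had 10.24 and 9.74 in Gp2-positive cells, 8.47, 7.85 and 8.08 in Gp2-negative cells, 7.44, 6.73 and 6.91 in Cea1-positive cells and 9.01, 8.84 and 9.08 in Cea1-negative cells. H2ac22 and H2ac11 belong to a family of near-identical genes whose probes may share signal.

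Genes that were higher in the Cea1 sort and lower in the Gp2 sort were Scgb2b27, a secretoglobin (-5.37), Cd177, a surface protein of neutrophils (-5.12), the cytokine gene Il10 (-4.46), Scgb1a1 (-4.14), Ly6m (-4.05) and Chgb (-3.97 as fitted, and -3.84 with the undetected Gp2-positive cells at their bound). Il10 had 5.80 and 5.80 in Gp2-positive cells, 7.84, 7.67 and 7.66 in Gp2-negative cells, 8.75, 8.57 and 9.28 in Cea1-positive cells and 6.21, 6.44 and 6.34 in Cea1-negative cells. Scgb2b27 rested on arrays that were far apart, with 6.48, 12.19 and 8.93 in Cea1-positive cells.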

How the results depend on the processing

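No called difference between sorts of a named gene turned sign under any of 22 alternatives. Of 4531 values of named genes, 76 lost the call, 36 gained one, and 38, of 15 genes and called neither way, turned sign. With median scaling 969 genes had a positive difference between sorts, 174 were higher in both sorts, 551 were higher in the Gp2 sort and not in the Cea1 sort, 448 were higher in the Cea1 sort and not in the Gp2 sort, 213 were lower in the Cea1 sort and not in the Gp2 sort, 102 had opposite calls and were higher in the Gp2 sort, and 65 shared genes were higher in at least 3 other sorts. With a difference of at least 1 on the log2 scale required, these counts were 1342, 139, 703, 509, 130, 69 and 44, while 225 were lower in both, 133 had opposite calls and were higher in the Cea1 sort, and the negative fractions differed for 299 genes. The 3152 genes that differed between the negative fractions became 1666 with both sorts normalized alone, 1661 with the 4 groups fitted alone, 4805 with the authors' values and 1968 to 3368 with an array left out, lowest without Gp2-negative replicate 1. A replicate block lies within a sort and gives no value for it.
With an array left out, 2243 to 2451 genes had a positive and 2695 to 3108 a negative difference between sorts, and 598 to 677 were higher in both. A replicate block gave 2580 and 3126, and 753 higher in both. Same-numbered deviations correlated at 0.24 and 0.11 in the Gp2 sort and 0.08, 0.22 and 0.14 in the Cea1 sort, and others at -0.24 to 0.19. The labels do not say that the numbers pair the samples, and they were not taken to do so. All same-numbered values were positive, though, and each Cea1-positive array correlated best with its own number. With 2 Gp2-positive arrays the values of 1 mirror those of the other, so they are not separate evidence. Gp2 itself lies near the top of the signal scale (difference of sorts 0.45, adjusted p = 0.025 with the authors' values, the one alternative that called it), and few arrays limit changes under 1 on the log2 scale.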
